A study of Mus musculus with 39 samples.

Results

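The genes that set the young mouse kidney apart from the young liver and lung were read from 12 libraries, 4 of kidney, 4 of liver and 4 of lung, out of 39 libraries in the whole study. A gene was taken as kidney-high if its counts were called higher in kidney than in liver and also higher in kidney than in lung, and as kidney-low if both comparisons were called lower. Of 11867 genes with enough counts to be tested, 2038 were kidney-high and 790 were kidney-low. The 2 lists describe the normal kidney program at 3 months of age, before any treatment.

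The study asked how the loss of perforin, a pore-forming protein of cytotoxic lymphocytes, affects senescent cells in ageing tissues. Every mouse in the groups used here was a male C57BL/6 mouse lacking perforin in all cells (Prf1-/-), so that the young controls carry the deletion as well, and no wild-type tissue enters any comparison. The young mice were 3 months old and untreated. The old mice were 20 months old and received either vehicle or 25 mg/kg of ABT-737, an inhibitor of anti-apoptotic BCL-2 family proteins, and they enter only as separate animals in which the young program can be looked up again. Organs were taken after perfusion. RNA from whole tissue was sequenced from the 3′ ends of transcripts. A count is thus a read, or a collapsed read, assigned to a gene entry. Some entries overlap and share reads, so a read can be counted for more than 1 entry. Identical counts were found for 66 genes in 19 sets, of which 0 were kidney-high and 2 kidney-low. Levels are given below as CPM, counts scaled to a common library size with edgeR's TMM factors. In such whole-tissue RNA, fewer cells of a type and less RNA per cell cannot be told apart.

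The kidney filters blood in glomeruli, whose podocytes form the filtration slit, and then returns most of the filtrate to the blood along the nephron. The proximal tubule takes back phosphate, glucose, amino acids and filtered protein and secretes organic anions. The loop of Henle takes up salt without water, the distal convoluted and connecting tubules adjust sodium, calcium and magnesium, and the collecting duct adjusts water in its principal cells and acid in its intercalated cells. Each segment has its own transporters, which makes whole-kidney RNA readable by segment. The liver shares with the proximal tubule the enzymes of gluconeogenesis and the transcription factor HNF4A, and the lung shares with the collecting duct the epithelial sodium channel.

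The upstream sequences of 3 kidney-high genes are shown because Hnf4a, whose product binds such letters, was found below to be shared by kidney and liver and nearly absent from lung. They are taken from RefSeq (GRCm38.p6), run 5′ to 3′ on the strand of the gene and hold the 250 bases before its annotated start. The letters searched were CAAAGTCCA, a form of the HNF4 site, on both strands, and capitals mark each match. Slc3a1, a subunit of the cystine transporter, has its window at chr17:85028097-85028346, Aadat, an aminotransferase of kynurenine and lysine breakdown, at chr8:60505874-60506123, and Treh, the trehalase of the brush border, at chr9:44672983-44673232, all on the plus strand.
Slc3a1: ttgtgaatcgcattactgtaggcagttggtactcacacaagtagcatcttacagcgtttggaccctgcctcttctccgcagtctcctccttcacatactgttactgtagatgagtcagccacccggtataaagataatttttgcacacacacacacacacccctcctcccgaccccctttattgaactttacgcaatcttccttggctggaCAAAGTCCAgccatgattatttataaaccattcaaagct
Aadat: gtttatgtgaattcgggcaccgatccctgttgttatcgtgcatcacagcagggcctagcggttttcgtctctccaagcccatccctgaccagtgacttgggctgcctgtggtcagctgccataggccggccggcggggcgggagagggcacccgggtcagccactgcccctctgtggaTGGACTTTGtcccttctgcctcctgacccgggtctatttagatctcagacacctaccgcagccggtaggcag
Treh: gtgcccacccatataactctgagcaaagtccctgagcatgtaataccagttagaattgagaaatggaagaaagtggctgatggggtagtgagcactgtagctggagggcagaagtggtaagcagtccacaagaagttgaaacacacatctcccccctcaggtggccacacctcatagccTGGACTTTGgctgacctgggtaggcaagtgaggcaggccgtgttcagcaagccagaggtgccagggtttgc

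The letters began 39 bases before the start in Slc3a1, 72 bases before it in Aadat and 71 bases before it in Treh, and in the last 2 they are read on the opposite strand, as TGGACTTTG. Among all 32851 RefSeq windows of 250 bases before to 50 bases after a start, 0.475% held them. The letters were held by 14 kidney-high genes, by 6 kidney-low genes and by 50 of all 9151 tested genes with a window (0.546%). From the 14, these 3 were picked after their values had been seen, also for having little lung RNA, and a match is only a run of letters. Other holders had RNA in lung, such as Rab11fip3, at 344 CPM in kidney and 27 in lung, and Osbpl6, at 68.2 and 46.6. The 3 shown differed in liver, where Slc3a1 had 67.4 ± 21.5 CPM against 674 ± 16.6 in kidney, Aadat 82.8 ± 25.8 against 237 ± 60.9, and Treh 1 count against 119 ± 15.8. A window was found for 1572 of the 2038 kidney-high genes and 595 of the 790 kidney-low genes, which is too few to compare how often the 2 lists hold the letters, so that comparison is void.

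The kidney libraries held between 2218423 and 3513311 counts, the lung libraries between 1506934 and 2033866 and the liver libraries between 527995 and 672778, so that low levels were least well seen in liver. A total of 3 counts over the 4 libraries of a tissue corresponds to 0.232 CPM in kidney, 1.76 CPM in liver and 0.331 CPM in lung. Where all 4 libraries of a tissue held no count of a gene, the fold is given against that floor as "at least", and where they held 1 to 3 counts in all, the fold is given as its 95% counting interval, which covers counting error only. Some libraries stood apart in single genes or gene groups. Kidney replicate 1 held the most haemoglobin RNA, liver replicate 1 the most pancreatic enzyme RNA and lung replicate 1 the most RNA of the hepatocyte gene Apoa1. The genes that rest on these libraries are given with and without them.

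Relative to liver, 3995 genes, 33.7% of those tested, were called higher in kidney and 2111 (17.8%) lower. Relative to lung, 4540 genes (38.3%) were called higher and 4326 (36.5%) lower. Both calls together gave the kidney-high genes, 17.2% of the genes tested, and the kidney-low genes, 6.66%. Another 1182 genes (9.96%) were higher in kidney than in liver and lower than in lung, 795 (6.7%) were lower than in liver and higher than in lung, and 1700 were called in neither comparison. Since the tests chose the members, their folds below describe the choice and are no further evidence for it. The median gene differed by 0.34 on the log2 scale from liver and by 0.03 from lung, and with library totals in place of TMM scaling the median against liver became 1.01 and the share of higher among the called genes went from 65.4% to 85.7%.

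**Figure D1:**
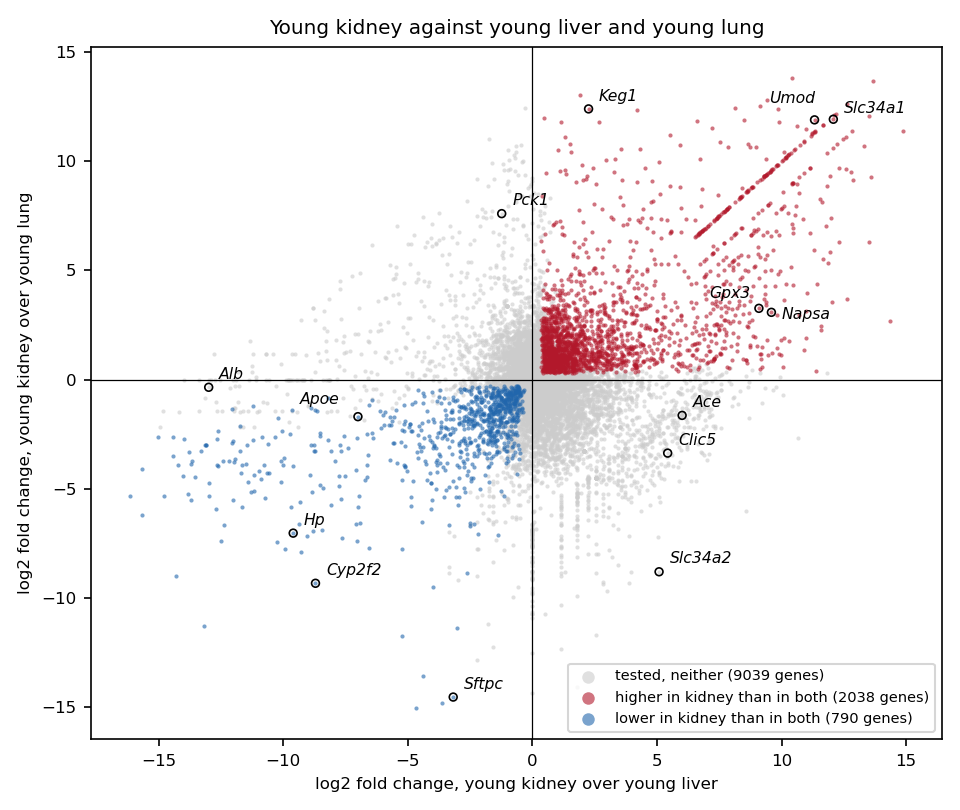
Each point is 1 of 11867 genes, with its log2 fold change of young kidney over young liver on the horizontal axis and over young lung on the vertical axis. The 2038 kidney-high genes lie in the upper right and the 790 kidney-low genes in the lower left, and the straight run of kidney-high points on the diagonal is genes without a count in either other tissue, whose fitted value depends on the prior count.

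Of the kidney-high genes, 1190 were over 2-fold, 607 over 4-fold and 211 over 16-fold above both other tissues. In 1803 of them all 4 kidneys lay above all 8 other libraries, an arrangement found in 16.1% of all genes tested. No count was seen in any liver for 353 of them, in any lung for 130, and in any liver or lung for 101. A group of 620 passed the filter on low counts through the kidney libraries alone and therefore had to differ. Together the kidney-high genes took 39.8 to 41.0% of the kidney counts, 7.20 to 7.48% of the liver counts and 9.76 to 10% of the lung counts. The levels were steady over the 4 kidneys, with a median coefficient of variation of 11.0%. Kidney-high genes were spread over the genome, from 12.9% of the tested genes on chromosome 18 to 20.2% on chromosome 6 among the autosomes and 16.4% on the X chromosome.

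Of the 12 kidney-high genes with the highest kidney level among those over 4-fold above both tissues, 11 are described here, and they came from the proximal tubule to the connecting tubule. Slc34a1, which brings filtrate phosphate back into the proximal tubule, had 5722, 4948, 5179 and 5613 CPM in the 4 kidneys, while liver held 2 counts in all and lung 12. Its log2 fold change was 11.92 ± 0.34 (SE) over lung, and its ratio to liver lay between 1250 and 37297 by counting error. Gpx3, the secreted glutathione peroxidase that the proximal tubule supplies to plasma, had 17246, 13049, 13614 and 17910 CPM in kidney against 21.5 to 31.8 in liver and 1360 to 1816 in lung. The groups did not overlap for either gene, and Gpx3 differed by 9.09 ± 0.30 from liver and 3.26 ± 0.21 from lung on the log2 scale. Umod, a gene of the loop of Henle, stood at 3176 ± 217 CPM (SD, n = 4) in kidney, with 2 counts in liver and 7 in lung.

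Klk1, tissue kallikrein of the connecting tubule, had 3932 ± 389 CPM in kidney, 3.82 in liver and 2.8 in lung. Fxyd2, the gamma subunit of the sodium pump, had 3987 ± 149 CPM with 1 count in the 4 livers and 44 in the 4 lungs, a log2 difference of 9.66 ± 0.28 from lung. Miox, myo-inositol oxygenase, had 3690 ± 191 CPM with 3 counts in liver, all in liver replicate 1, and 11 in lung.
Acsm2, a mitochondrial medium-chain acyl-CoA ligase, had 3295 ± 197 CPM in kidney and a log2 difference of 9.84 ± 0.37 from liver and 12.39 ± 0.37 from lung. Acy3, which deacetylates mercapturic acids, had 4543 ± 816 CPM, with more left in liver (230 ± 60.6) than in lung (30.1 ± 1.95). Keg1, named for its expression in kidney, had 2720 ± 300 CPM against 571 ± 46.8 in liver and 4 counts in lung. Acy3 and Keg1 were thus shared in part with liver, whereas Cyp4b1, a cytochrome P450 (4811 ± 547 CPM), and Napsa, an aspartic protease (4599 ± 318 CPM), were shared in part with lung, at 900 ± 172 and 544 ± 58.1 CPM.

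Umod and Acsm2 lie 82445 bases apart on chromosome 7, with Acsm5 and Pdilt between them. They are transcribed in different segments of the tubule, the loop of Henle and the proximal tubule.

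The tubule segments were described with lists of their known genes. Of the proximal tubule genes, 23 of 26 were kidney-high, of the loop of Henle genes 15 of 15, of the distal convoluted and connecting tubule genes 10 of 11, of the principal cell genes 8 of 11, of the intercalated cell genes 12 of 13 and of the podocyte genes 4 of 10. The share of all genes was 17.2%, but nothing is read from these counts, since 16 proximal tubule, 14 loop, 8 distal, 7 principal cell, 11 intercalated cell and 4 podocyte genes passed the filter on low counts through the kidney libraries alone and so had to differ. With genes that had no count in a tissue set to their bound, the median log2 difference from liver was 6.17 in the proximal tubule list, 6.12 in the loop list, 5.93 in the distal list, 4.41 in the principal cell list, 5.11 in the intercalated cell list and 3.08 in the podocyte list, beside 0.29 for all genes. The same medians against lung were 9.36, 7.75, 6.98, 6.30, 5.85 and 0.50, beside 0.03 for all genes. Against lung, 5 podocyte genes were called higher in kidney and 4 called lower. The medians rest on the same members that had to differ, so the segments are not ranked by them. The fitted medians, which depend on the prior count, were larger, such as 10.28 against liver for the proximal tubule.

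**Figure D2:**
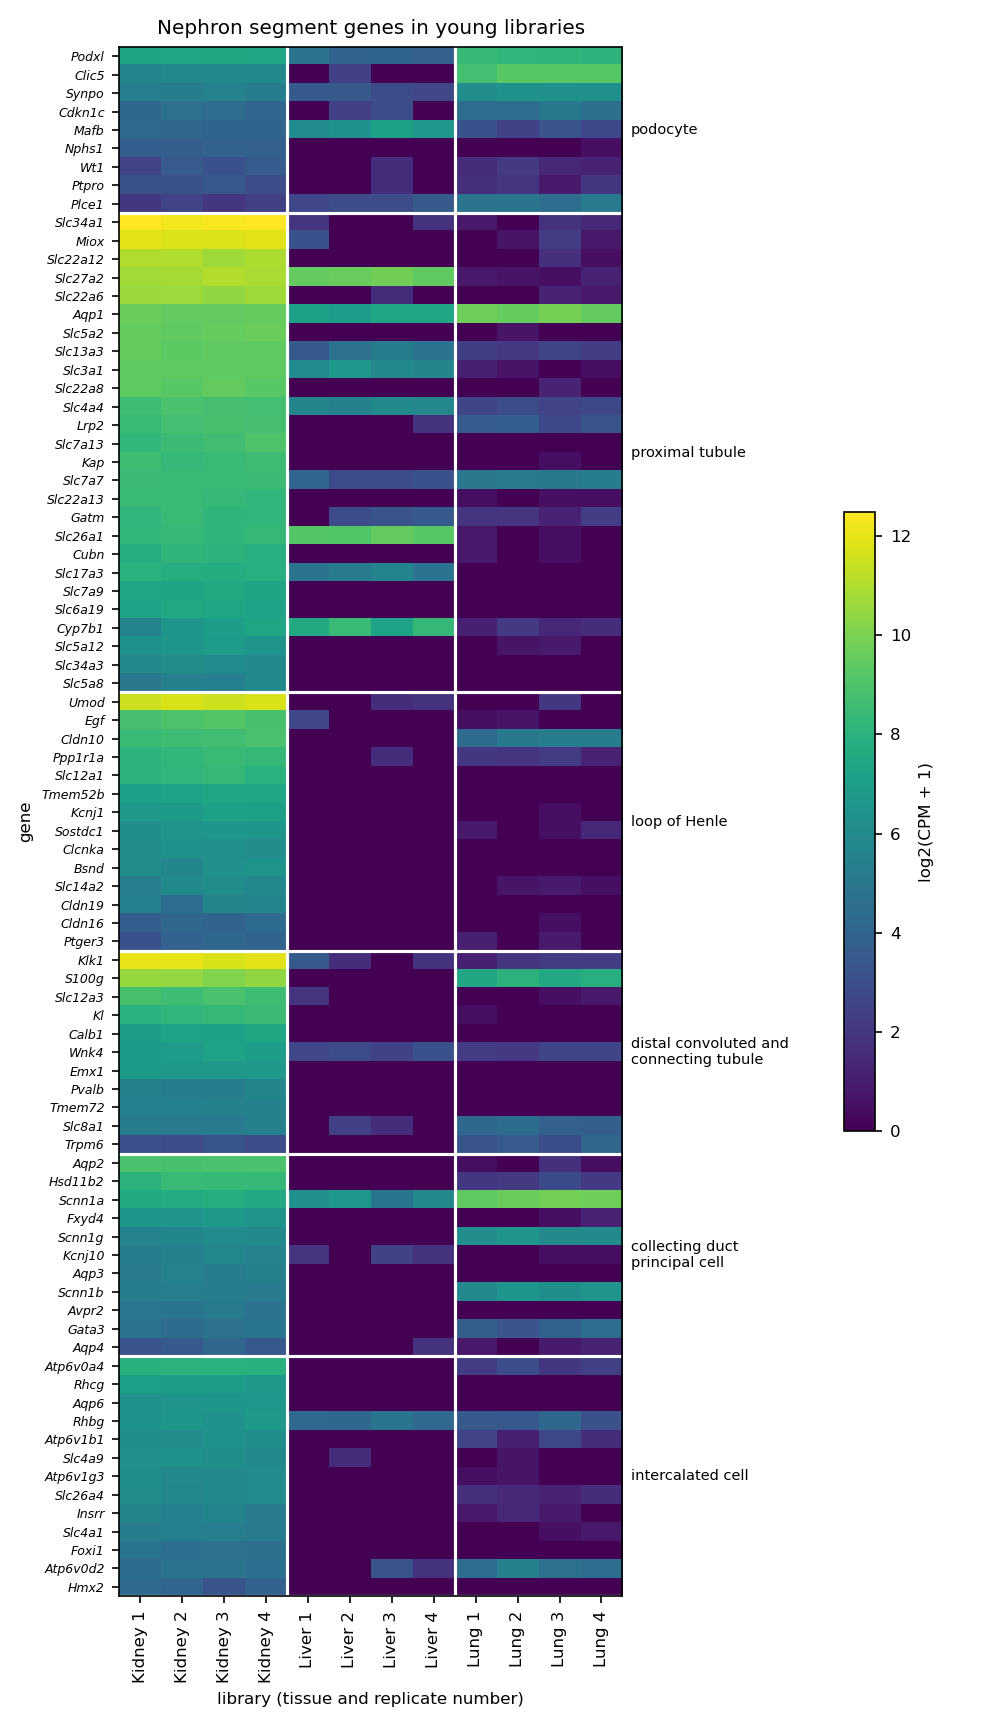
The heatmap shows log2(CPM + 1) of tested segment genes in the 4 kidney, 4 liver and 4 lung libraries of young mice, grouped by segment. The kidney columns are filled in every segment, the liver and lung columns are nearly empty in the loop of Henle, and lung shows signal in the podocyte and principal cell rows.

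The proximal tubule list summed to between 21303 and 22698 CPM in kidney, 1779 and 2140 in liver and 788 and 1013 in lung. Slc22a12, the urate transporter of the brush border, had 2011, 2034, 1657 and 1999 CPM in kidney and no count in liver, and was at least 1086-fold higher than in liver. Slc22a6, which brings organic anions in from the blood, had 1564 ± 132 CPM with 1 count in liver and 5 in lung. Slc5a2, the low-affinity glucose cotransporter, had 740, 687, 745 and 780 CPM, no count in liver and 1 in lung, and was at least 416-fold higher than in liver. It overlaps BC017158 on the other strand, and whether strand was used in counting is not given in the sources used here. For these transporters no kidney library came near the other tissues.

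Lrp2 and Cubn encode megalin and cubilin, the endocytic receptors for filtered protein. Lrp2 had 423 ± 47.9 CPM in kidney and kept 9.4 ± 3.01 in lung, while Cubn had 252 ± 33.2 CPM in kidney, 3 counts in lung and none in liver, at least 146-fold lower. Slc27a2, a fatty acid transporter and acyl-CoA ligase, was the member least apart from liver among those highest in kidney, with 1870 ± 165 against 758 ± 88.8 CPM (log2 1.30 ± 0.15), yet it had 7 counts in lung. Slc3a1, whose upstream sequence is shown above, had 698, 672, 660 and 667 CPM in kidney, 49.6 to 98.5 in liver and 5 counts in lung, and its transcript overlaps Prepl.
Of the 3 members that were not kidney-high, Slc26a1, a sulfate anion transporter, was lower in kidney (306 ± 12.9 CPM) than in liver (607 ± 72.8), at −0.99 ± 0.14, and overlaps Idua. Cyp7b1, an oxysterol hydroxylase, was also lower than in liver, at −1.24 ± 0.26, with 46.5, 92.1, 121 and 169 CPM over the 4 kidneys. Aqp1, the water channel of proximal tubule and capillaries, differed from lung by −0.13 ± 0.14 (adjusted p = 0.414). It was called lower than in lung under DESeq2 (−0.31, DESeq2 adjusted p = 0.00781).

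In the loop of Henle list, the sums were 5086 to 5768 CPM in kidney, 0 to 5.29 in liver and 25.0 to 46.3 in lung. Slc12a1, the sodium-potassium-chloride cotransporter that loop diuretics block, had 268, 298, 314 and 246 CPM in kidney and no count in any of the 8 other libraries, which made it at least 163-fold higher than in liver and at least 865-fold higher than in lung. Egf, whose product is shed into urine from this segment, had 496 ± 51.9 CPM with 2 counts in liver and 2 in lung. Cldn10, a paracellular sodium channel in the thick limb, was the member with the most RNA in lung, at 31 ± 7.94 CPM against 402 ± 56.4 in kidney (log2 3.70 ± 0.18). Ppp1r1a, an inhibitor of protein phosphatase 1, had 309 ± 32.1 CPM in kidney and 2.66 ± 0.976 in lung.

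In the distal convoluted and connecting tubule, Slc12a3, the thiazide-sensitive sodium chloride cotransporter, had 461, 382, 469 and 395 CPM in kidney with 1 count in liver and 3 in lung. Kl, the FGF23 coreceptor klotho, had 249, 299, 316 and 360 CPM, no count in liver and 1 in lung. Calb1, the calcium-binding calbindin-D28k, had 146 ± 21 CPM and no count in the 8 other libraries, at least 82.3-fold higher than in liver and at least 437-fold higher than in lung. S100g, the smaller calbindin, was the exception in lung, with 1340 ± 146 CPM in kidney and 212 ± 38.1 in lung (log2 2.66 ± 0.17) but none in liver, and it overlaps Ctps2. Trpm6, the magnesium channel, was the member not called higher than in lung, with 7.28 ± 1.33 against 10.7 ± 4.09 CPM (adjusted p = 0.0736). It was called lower than in lung with DESeq2's size factors (adjusted p = 0.0187) and with library totals (adjusted p = 0.0341). Trpv5, the calcium channel, had 1 count in all 12 libraries and could not be tested.

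In principal cells, Aqp2, the vasopressin-regulated water channel, had 473, 463, 480 and 475 CPM in kidney, no count in liver and 7 in lung. Hsd11b2, which protects the mineralocorticoid receptor from glucocorticoid, had 317 ± 39.6 CPM in kidney and 3.97 ± 1.4 in lung, and Fxyd4, a sodium pump regulator, had 94.7 ± 7.02 CPM with 4 counts in lung. Both, like Aqp2, were without a count in liver. The 3 subunits of the epithelial sodium channel separated from the rest of the list. Scnn1a had 199 ± 15.6 CPM in kidney and 809 ± 106 in lung (log2 −2.02 ± 0.18), and Scnn1b had 37 ± 2.96 and 77.9 ± 15.5 (−1.06 ± 0.15). Scnn1g had 55.3 ± 8.47 and 69.6 ± 14.8 (−0.32 ± 0.16, adjusted p = 0.0674). It was called lower than in lung under DESeq2 (−0.51, DESeq2 adjusted p = 0.0116) and with DESeq2's size factors (adjusted p = 0.00533). It was also called with library totals (adjusted p = 0.017) and in thinned counts (adjusted p = 0.018). Scnn1b and Scnn1g had no count in liver, whereas Scnn1a had 66.3 ± 31.1 CPM there, so the alpha subunit was seen in all 3 tissues and the beta and gamma subunits in kidney and lung.

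In intercalated cells, Atp6v0a4 had 241, 258, 250 and 238 CPM in kidney, none in liver and 4.35 ± 1.62 in lung, and it overlaps Tmem213 and D630045J12Rik. Rhcg, an ammonia channel, had 130, 126, 125 and 102 CPM, and Aqp6, a water channel of intracellular vesicles, had 81, 90.1, 97.7 and 100 CPM, neither with a count outside kidney. Rhcg was at least 369-fold and Aqp6 at least 279-fold higher than in lung. Rhbg, the basolateral relative of Rhcg, was less confined, at 90.4 ± 9.86 CPM in kidney, 20.4 ± 5.09 in liver and 11.3 ± 3.99 in lung. The acid-secreting and the base-secreting cell were both seen, through Slc4a1, the basolateral anion exchanger (38.3 ± 2.77 CPM, none in liver and 3 counts in lung), and Slc26a4, the apical exchanger pendrin (61.9 ± 6.64 CPM, none in liver and 1.85 ± 0.463 in lung). Slc4a1 is also a red cell gene. Atp6v0d2, a proton pump subunit, was the member not kidney-high, at 23.7 ± 3.06 CPM in kidney and 27.3 ± 9.67 in lung. In thinned counts it was called lower than in lung (−0.78, adjusted p = 0.0403).

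The podocyte list summed to 347 to 383 CPM in kidney, 109 to 176 in liver and 907 to 1042 in lung. Nphs1, nephrin of the filtration slit, had 12.5, 12.7, 14.2 and 13.1 CPM in kidney, no count in liver and 1 in lung, so it was seen almost only in kidney. Wt1 and Ptpro, a transcription factor and a receptor phosphatase, were kidney-high at 8.79 ± 3.02 and 7.78 ± 1.6 CPM and had 2.07 ± 0.895 and 2.23 ± 0.943 CPM in lung. By contrast, Podxl, which also lines vascular endothelium, was lower in kidney (164 ± 8.57) than in lung (297 ± 26.9), at −0.86 ± 0.13, and Clic5, an intracellular chloride channel protein, was lower at −3.37 ± 0.16 with 53.2 ± 3.91 against 550 ± 78.2 CPM. Magi2, Robo2 and Thsd7a were below the filter, with at most 18, 15 and 36 counts in a kidney. When all libraries were thinned to the depth of the shallowest one, none of the 4 podocyte calls was left.

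Among 24 transcription factors of kidney development and tubule identity, 21 were tested and 16 were kidney-high, beside 17.2% of all genes. Of the 21, 11 passed the filter on low counts through the kidney libraries alone, so nothing is read from the count. Pax8 and Pax2, the paired-box factors that start the nephric lineage, had 47.9 ± 2.81 and 37 ± 6.95 CPM in kidney, and Emx1 had 111, 107, 107 and 104 CPM. None of the 3 had a count in the 8 other libraries, and Emx1 was at least 323-fold higher than in lung. Vdr, the vitamin D receptor, had 324 ± 14.9 CPM with 2 counts in liver and 9.18 ± 1.54 CPM in lung. Tfcp2l1, a collecting duct factor, had 171 ± 4.64 CPM in kidney, 3.43 ± 0.933 in liver and 18.8 ± 3.64 in lung. Esrrb, an orphan receptor, had 35.2 ± 6.65 CPM and no count elsewhere.
Hnf4a, a nuclear receptor of liver and proximal tubule, had 618 ± 29.5 CPM in kidney and 913 ± 64.3 in liver, a log2 difference of −0.56 ± 0.15 that turned to 0.11 with library totals in place of TMM scaling, and 8 counts in lung. The Hnf4a call against liver was lost with all 30 libraries in the fit (adjusted p = 0.0583). Irx3 was barely above lung, at 122 ± 13.2 against 89.1 ± 14.4 CPM (log2 0.46 ± 0.15), and the call was lost under DESeq2 (0.28, DESeq2 adjusted p = 0.102), with DESeq2's size factors (adjusted p = 0.0893), in thinned counts (0.27, adjusted p = 0.199) and with all 30 libraries in the fit (adjusted p = 0.117). Irx1, its relative, was lower in kidney than in lung, at −1.02 ± 0.13. Sim1, Nr3c2 and Ehf had too few counts to be tested.

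The Hox genes were looked at after their values had been seen, as all tested genes whose symbol begins with Hox. Of these, 20 of 26 were kidney-high, among them the entries Hoxb5os and Hoxd3os1, beside 17.2% of all genes. Members without a count in liver and lung passed the filter on low counts through kidney alone, so nothing is read from the count. Hox factors fix position along the body axis, and the order of the genes in a cluster follows that axis. Hoxa10 and Hoxa9 had 37.9 and 44.3 CPM in kidney and 1 count each in lung, Hoxa7 had 133 CPM in kidney and 26.5 in lung, and Hoxa5 had 33.6 CPM in kidney and 144 in lung (log2 −2.10). Hoxc6, Hoxc8, Hoxc9 and Hoxc10 were without a count in liver and lung, and Hoxc10 was at least 123-fold higher in kidney than in lung. Hoxb4 did not separate kidney from lung, at 31.5 and 30.7 CPM.

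Of the hormone and peptide genes, 12 of 19 tested were kidney-high, beside 17.2% of all genes. The 12 covered the renin, vitamin D and parathyroid hormone systems. Of the 19, 8 passed the filter on low counts through the kidney libraries alone, so nothing is read from the count. Ggt1, the brush border enzyme that opens glutathione, had 1952 ± 118 CPM in kidney with 2 counts in liver and 35 in lung. Mep1a, the metalloprotease meprin, had 895 ± 25.5 CPM with 1 count in liver and none in lung, at least 2708-fold higher than in lung. Pth1r, the receptor for parathyroid hormone, had 709 ± 85.6 CPM against 32.9 ± 6.92 in liver and 4.13 ± 0.757 in lung. Ren1, renin, had 113, 126, 86.9 and 21.2 CPM in the 4 kidneys and 1 count outside, and it shares nearly all of its reads with the overlapping Ren2 entry.
The renin cascade was split over the 3 tissues. Agt, the renin substrate, was highest in liver at 551, 811, 794 and 616 CPM, with 36.3 to 47.3 in kidney and 5 counts in lung. Ace, the converting enzyme, was highest in lung at 602 ± 65.3 CPM, with 193 ± 18.6 in kidney and 5 counts in liver. Dio1, which activates thyroid hormone, was lower in kidney than in liver at −2.46 ± 0.18, and Enpep, an angiotensin-cleaving peptidase, was called in neither comparison. Epo had no count in any library, and Cyp27b1, which activates vitamin D, had at most 14 counts in a kidney.

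Aquaporins, the water and glycerol channels, divided by tissue, with 6 of 10 tested kidney-high and 1 kidney-low, beside 17.2% and 6.66% of all genes. Of the 10, 5 passed the filter on low counts through the kidney libraries alone, so nothing is read from the count. Aqp2, Aqp3 and Aqp6 were nearly confined to kidney, and Aqp3, on the basolateral side of principal cells, had 40.2 ± 4.02 CPM there and none in the 8 other libraries. Aqp11, an intracellular aquaporin, had 78.2 ± 8.08 CPM in kidney and 52.5 ± 8.96 in liver (log2 0.57 ± 0.18), a call lost under DESeq2 (0.45, DESeq2 adjusted p = 0.0648), in thinned counts (0.42, adjusted p = 0.0958) and with all 30 libraries (adjusted p = 0.204). Aqp7, which passes glycerol, had 18.4 ± 3.33 CPM with 1 count outside kidney. Aqp5 had 1904 counts in the lungs, 2 in the kidneys and none in the livers. Aqp8 and Aqp9 were liver genes, at 139 ± 5.64 and 606 ± 73.7 CPM, and Aqp9 had 1 count in the 4 kidneys and 9 in the 4 lungs. Its call against lung was lost without lung replicate 1 (−2.26, adjusted p = 0.0677), in thinned counts (adjusted p = 0.292) and with all 30 libraries (adjusted p = 0.133). Aqp2, Aqp5 and Aqp6 lie side by side on chromosome 15, 6482 bases from the end of Aqp2 to Aqp5 and 6570 from the end of Aqp5 to Aqp6, so a lung gene sat between 2 kidney genes.

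**Figure D3:**
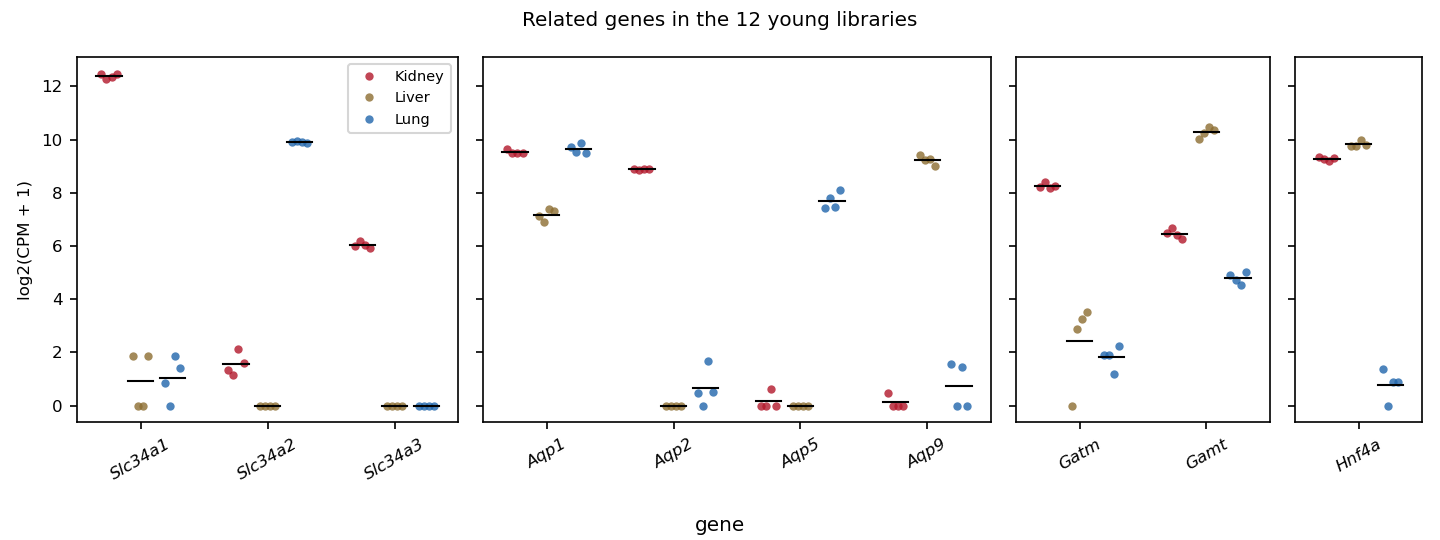
The panels plot log2(CPM + 1) by library for related genes in the 4 kidneys, 4 livers and 4 lungs of young mice, with a bar at the mean of each tissue. Slc34a1 and Slc34a3 stand in kidney and Slc34a2 in lung, Aqp2 in kidney, Aqp5 in lung and Aqp9 in liver while Aqp1 is seen in all, Gatm is highest in kidney and Gamt in liver, and Hnf4a in kidney and liver.

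The phosphate cotransporters showed the same partition. Slc34a3 had 62.8, 71.7, 65.1 and 59.2 CPM in kidney and none in liver or lung, at least 198-fold higher than in lung. Slc34a2, the form of alveolar cells, had 959 ± 23.4 CPM in lung, 2.05 ± 0.965 in kidney and no count in liver. The steps of creatine synthesis were divided as well. Gatm, which makes guanidinoacetate, was kidney-high with 307 ± 20.3 CPM against 6.33 ± 4.55 in liver (log2 5.56 ± 0.28), whereas Gamt, which methylates it to creatine, had 87.7 ± 10.8 CPM in kidney and 1247 ± 159 in liver (−3.83 ± 0.16).

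Of the claudins, the tight junction proteins that set paracellular ion passage, 6 of 14 were kidney-high, beside 17.2% of all genes. Of the 14, 4 passed the filter on low counts through the kidney libraries alone, so nothing is read from the count. Besides Cldn10, the kidney-high claudins included Cldn2, the cation-selective claudin of the proximal tubule, with 355 ± 36.3 CPM in kidney, 88 ± 20.9 in liver and 3 counts in lung. They also included Cldn8, a collecting duct claudin, with 29.3 ± 3.07 CPM. Cldn3 was kidney-low, at 17.4 ± 3.08 CPM against 132 ± 22.4 in liver and 172 ± 48.6 in lung. Cldn18 and Cldn5, of alveolar epithelium and endothelium, were lower in kidney than in lung, at −9.33 ± 0.25 and −4.44 ± 0.19.
Of the osmolyte and medulla genes, 6 of 11 were kidney-high, beside 17.2% of all genes. Of the 11, 5 passed the filter on low counts through the kidney libraries alone, so nothing is read from the count. Slc5a3, which takes up inositol, had 101 ± 20 CPM against 5.67 ± 2.4 in liver and 5.29 ± 1.52 in lung, and it overlaps Mrps6. Slc6a6, which takes up taurine, had 262 ± 25.8 CPM against 80.8 ± 23.1 and 131 ± 14.6. Slc6a12, the betaine transporter, instead stood at 160 ± 58.4 CPM in liver and 2.34 ± 0.653 in kidney.

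Gluconeogenesis and fructose use were shared with the liver. Of 14 tested genes, 12 were called higher in kidney than in lung, 7 were called lower than in liver, and 1, Gatm, was kidney-high. The shares of all genes were 38.3%, 17.8% and 17.2% in the same order. With library totals in place of TMM scaling, 5 were kidney-high. Pck1, the entry enzyme, had 4148, 3906, 4313 and 4337 CPM in kidney, 7758 to 11497 in liver and 16.5 to 27.4 in lung, lower than in liver by 1.23 ± 0.20 and higher than in lung by 7.60 ± 0.27 (log2). The Pck1 call against liver was lost with all 30 libraries in the fit (adjusted p = 0.202). Fbp1 had 1840 ± 66.1 CPM in kidney and 2271 ± 123 in liver, and G6pc, the last enzyme of glucose release, had 173 ± 30.5 and 177 ± 85.5 CPM, so that these genes differed from liver by −0.30 ± 0.18 and −0.02 ± 0.21 (adjusted p = 0.17 and 0.949). Khk, ketohexokinase, differed from liver by 0.11 ± 0.18, and Ass1, of arginine synthesis, by −0.40 ± 0.19. With library totals, G6pc (0.65, adjusted p = 0.0085) and Khk (0.77, adjusted p = 3.2e-04) were called higher in kidney than in liver. Fbp1 was called lower than in liver under DESeq2 (−0.43, DESeq2 adjusted p = 2.51e-07), with DESeq2's size factors (adjusted p = 0.0497) and in thinned counts (adjusted p = 0.0369), and Ass1 under these settings and without the filter on low counts. Arg1, the urea cycle enzyme, was the kidney-low member, with 1 count in the 4 kidneys, 1992 ± 197 CPM in liver and 12 counts in the 4 lungs, and its call against lung was lost in thinned counts (adjusted p = 0.365). Over all genes, 1221 (10.3%) were higher in kidney and in liver than in lung and not called apart between kidney and liver, and 680 (5.73%) were shared in the same way by kidney and lung against liver.

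Transporters as a whole were counted by symbol, a choice made after their values had been seen. Of 264 tested Slc genes, 104 (39.4%) were kidney-high and 12 (4.55%) kidney-low, beside 17.2% and 6.66% of all genes. The share was 12 of 16 in the Slc22 family of organic ion transporters, 8 of 9 in the Slc5 family of sodium-coupled glucose and solute transporters, and 3 of 3 in Slc13. Members such as Slc22a8 passed the filter on low counts through kidney alone and had to differ, so nothing is read from these shares. Slc22a8 and Slc22a6 are neighbours on chromosome 19, with 6160 bases between them, and Slc22a8 had 669, 609, 715 and 597 CPM in kidney, none in liver and 3 counts in lung. Slc22a13, on chromosome 9, had 324 ± 26 CPM in kidney, none in liver and 3 counts in lung. Proton pump genes (Atp6v) were kidney-high in 17 of 22, including subunits used in every cell. Nothing is read from this count either, since members such as Atp6v1b1 passed the filter through kidney alone. Cytochrome P450 genes were kidney-high in 10 of 60 (16.7%), a share near that of all genes, and kidney-low in 8 (13.3%).

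The 790 kidney-low genes were called lower in kidney than in both other tissues. They took 2.26 to 2.39% of the kidney counts, 27.9 to 29.9% of the liver counts and 13.8 to 14.4% of the lung counts. In 581 of them all 4 kidneys lay below all 8 other libraries, beside 5.28% of all genes tested. Over 2-fold lower than both were 535, over 4-fold 255 and over 16-fold 63. Their median coefficient of variation over the kidneys was 20.4%.

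Among the kidney-low genes with the highest level in both other tissues and more than 2-fold lower in kidney, Cyp2f2, a cytochrome P450 of club cells and liver, had 10.2, 9.46, 5.51 and 8.57 CPM in kidney against 3523 ± 247 in liver and 5406 ± 284 in lung, at −8.71 ± 0.26 and −9.33 ± 0.27. Aldh1a1, which oxidises retinaldehyde, had 5.16 ± 2.29 CPM in kidney against 1074 ± 203 and 819 ± 108. Hp, haptoglobin, had 8.1 ± 4.42 CPM against 6509 ± 1283 and 1094 ± 69.4. These 3 genes were nearly silent in kidney, whereas the other 5 were present at a lower level. Apoe, the lipoprotein ligand, had 372 ± 55.2 CPM in kidney against 47851 ± 2234 in liver and 1209 ± 198 in lung. Prdx6, a peroxiredoxin, had 282 ± 25.3 CPM against 943 ± 53.7 and 1380 ± 256.
The remaining 3 belong to MHC class I antigen presentation. H2-D1 had 387, 471, 391 and 384 CPM in kidney, 1192 ± 138 in liver and 2666 ± 205 in lung. H2-K1 had 335 ± 37.3 CPM in kidney against 1855 ± 86.6 in liver and 921 ± 49.9 in lung. B2m, their shared light chain, had 295 ± 50.3, 1461 ± 583 and 1160 ± 41.5 CPM in the same order. All 4 kidneys lay below every liver and lung for each of the 3 genes, with log2 differences from −1.46 ± 0.15 (H2-K1 from lung) to −2.71 ± 0.17 (H2-D1 from lung).

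Markers of other tissues and cells were read in the same libraries. The hepatocyte list summed to 1629 to 2103 CPM in kidney, 197077 to 217513 in liver and 1523 to 2000 in lung. Alb had 5.79 ± 2.02 CPM in kidney and 49593 ± 5184 in liver. Beside 6.66% of all genes, 6 of the 18 hepatocyte genes were kidney-low. Of these, Apoa1 rested on lung replicate 1, which had 115 CPM against 1.67 to 4.60 in the other lungs, and without it the difference from lung was −0.45 (adjusted p = 0.413). Trf, transferrin, had 27.7 ± 5.2 CPM in kidney, 21612 ± 1777 in liver and 429 ± 81.3 in lung. The lung epithelium list summed to 4398 to 5080 CPM in kidney, of which Napsa alone gave 4372 to 5051, while Sftpc and Scgb1a1, of type 2 alveolar and club cells, had 0.417 ± 0.421 and 0.448 ± 0.388 CPM in kidney against 12507 ± 1492 and 15082 ± 2395 in lung. Hopx, of type 1 alveolar cells, was kidney-low at 20 ± 1.73 CPM. The defining markers thus placed the libraries labelled kidney, liver and lung in their tissues.

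Endothelial genes were called lower in kidney than in lung in 11 of 13 and leukocyte genes in 12 of 12, beside 36.5% of all genes. The endothelial list summed to 642 to 692 CPM in kidney, 516 to 579 in liver and 3733 to 4200 in lung. The leukocyte sums were 1435 to 2065, 580 to 1041 and 9380 to 12793 CPM. Fibroblast and smooth muscle genes were lower than in lung in 12 of 12, with sums of 336 to 433 CPM in kidney, and striated muscle genes in 7 of 7, with sums of 1.99 to 4.92 CPM in kidney. Of the adrenal cortex list, 1 of 7 genes had enough counts to be tested and its sum in kidney was at most 3.27 CPM, with Cyp11b1, Cyp11b2 and Mc2r at 0 in every young library.

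**Figure D4:**
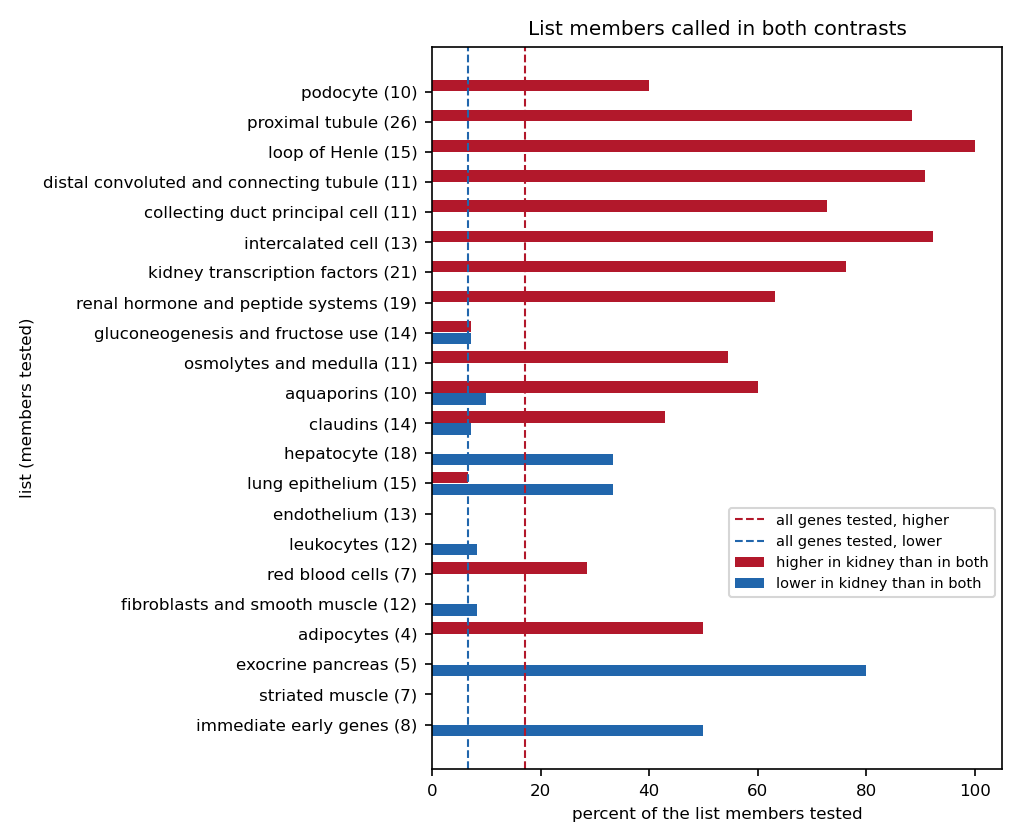
Bars give the percent of tested members of each gene list that were kidney-high or kidney-low, with dashed lines at 17.2% and 6.66%, the shares among all genes tested. The 5 tubule lists lie between 72.7% and 100% kidney-high, while the hepatocyte, endothelium, leukocyte and muscle lists have none. Nothing is read from the kidney-high bars, since list members that passed the filter on low counts through kidney alone had to differ.

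Red cell and fat genes entered the kidney-high list, and their levels moved with single libraries. The red cell list summed to 1336 to 7387 CPM in kidney, 721 to 2247 in liver and 1459 to 2876 in lung. Hbb-bs, a beta globin, had 1632, 408, 320 and 336 CPM in kidney, 133 to 553 in liver and 204 to 473 in lung, so the groups overlapped. Without kidney replicate 1 it differed from liver by 0.26 (adjusted p = 0.474) and from lung by 0.21 (adjusted p = 0.499), and its call against liver was also lost without liver replicate 2 (1.05, adjusted p = 0.0598) or 3 (0.93, adjusted p = 0.0743). Hbb-b1 overlaps it and counts nearly the same reads.
Adipoq, the fat cell hormone, had 7.57, 19.9, 6.56 and 11 CPM in kidney, none in liver and 2.09 to 6.68 in lung, and without kidney replicate 2 its difference from lung was 0.76 (adjusted p = 0.0524). Cfd, adipsin, had 53.7 to 94.1 CPM in kidney and 30.1 to 61.1 in lung. The pancreatic list was kidney-low in 4 of 5 genes, beside 6.66% of all genes, and summed to 21.5 to 302 CPM over the livers. Cela2a, an elastase, had 82.1 CPM in liver replicate 1 against 4.19 to 15.7 in the other livers. Without that library its difference from liver was −0.56 (adjusted p = 0.474), and without lung replicate 1 its difference from lung was −0.92 (adjusted p = 0.0753). Cela2a overlaps Casp9. Immediate early genes, which respond to handling, were kidney-low in 4 of 8, also beside 6.66% of all genes. Jun had 44.7 ± 5.57 CPM in kidney against 71.5 ± 4.8 in liver and 250 ± 9.65 in lung, and its difference from liver of −0.68 became −0.0083 with library totals (adjusted p = 0.972) and was not called with all 30 libraries (adjusted p = 0.103). Dusp1 had 56.7 ± 14.3, 181 ± 58.5 and 292 ± 74.2. The part of handling, blood or attached fat in the calls was not tested.

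Some kidney-high genes varied strongly between the 4 kidneys. Tmem27, collectrin, a partner of amino acid transporters, had 52.6, 35.1, 33.3 and 242 CPM, with no count in liver and 1 in lung, and it was still called against both tissues when any 1 library was left out. Pdp2, a phosphatase of pyruvate dehydrogenase, had 143, 55.5, 125 and 39.6 CPM. Besides these, Hbb-bs and Hbb-b1 had the largest variation among kidney-high genes with at least 50 CPM.

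At the threshold, Ralgapb was the last gene inside against lung, with 33.8 ± 1.83 against 26.7 ± 2.96 CPM (adjusted p = 0.0499), and Alg5 and Iah1 were the last inside against liver, at 79.3 ± 7.61 against 58.3 ± 6.3 and 566 ± 30 against 445 ± 64.2 CPM (both adjusted p = 0.0498). Just outside were Rpusd4, Cmc2 and Lage3, with 15.1 ± 2.14, 53.2 ± 7.28 and 57.8 ± 3.81 CPM in kidney against 8.46 ± 3.72, 35.4 ± 16.7 and 42 ± 15.6 in liver (adjusted p = 0.05002, 0.0501 and 0.0506).

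The old mice gave separate animals in which the same comparisons could be made, with 3 libraries per tissue in each treatment and totals from 223957 to 2600092 counts. In old vehicle-treated mice, 8.6% of 11318 genes were called higher in kidney than in both tissues and 4.06% lower. Of the young kidney-high genes, 1916 were tested there and 893 (46.6%) were called again, and 1705 lay in the same direction against both tissues. Of the young kidney-low genes, 742 were tested, 312 (42%) were called again and 640 lay in the same direction. Without the kidney of replicate 3 or of replicate 5, the 312 became 206 or 203. In old ABT-737-treated mice, the shares of all genes were 9.02% and 3.61% of 11750, and 965 of 1970 kidney-high genes (49%) and 350 of 763 kidney-low genes (45.9%) were called again. No young member was called in the opposite direction against both tissues in either group, and 12 kidney-high and 3 kidney-low genes in vehicle-treated mice, and 8 and 6 in ABT-737-treated mice, were called opposite against 1 tissue.

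All 11 kidney-high genes described above for their level were called again in both old groups. Slc34a1 had 4642, 4299 and 4453 CPM in the kidneys of vehicle-treated mice and 5012, 4579 and 6269 CPM in those of ABT-737-treated mice. Of the segment lists, 23 of 26 proximal tubule genes and 15 of 15 loop genes were kidney-high in each old group, 10 of 11 and 9 of 11 distal genes, 7 of 11 principal cell genes in each, and 10 of 12 and 11 of 13 intercalated cell genes in vehicle-treated and ABT-737-treated mice. Of the podocyte genes, 3 of 10 and 3 of 12 were called. Transcription factors gave 13 of 20 and 14 of 22, and the hormone list 12 of 18 and 10 of 19. The shares of all genes were 8.6% in vehicle-treated and 9.02% in ABT-737-treated mice. Members such as Slc12a1 and Rhcg, with almost no count in old liver and lung, passed the filter on low counts through kidney alone. They had to differ, so nothing is read from these list counts. None of the 7 red cell genes and none of the 4 fat genes tested was kidney-high in either old group. With so few genes this is near the shares of all genes, and nothing is read from it.

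**Figure D5:**
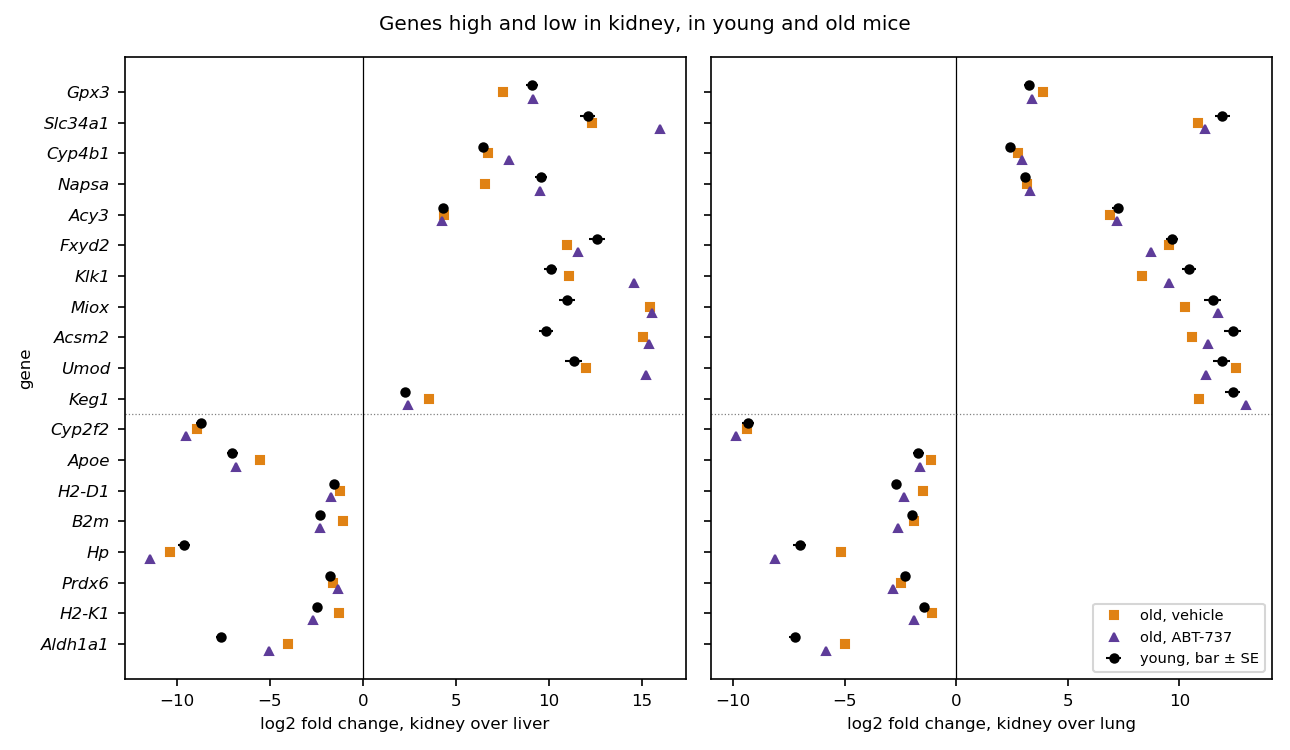
Points give the log2 fold change of kidney over liver and over lung for 11 kidney-high and 8 kidney-low genes chosen by level, in young mice with its SE and in old vehicle-treated and old ABT-737-treated mice. The 11 kidney-high genes lie above 0 in all 3 groups and the 8 kidney-low genes below 0, and against liver the MHC class I genes are nearest to 0 in old vehicle-treated mice.

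Of the 8 kidney-low genes, all 8 were called again in ABT-737-treated mice and 5 in vehicle-treated mice. The 3 not called were Apoe against lung (−1.16), B2m against liver (−1.07) and H2-K1 against both (−1.29 and −1.11). H2-K1 had 1926, 1204 and 1015 CPM in the old vehicle-treated kidneys, 2041, 3458 and 4605 in the livers and 2951, 1942 and 4040 in the lungs, values scaled separately from those of young mice. These kidneys lay below all livers and lungs of the same group, as in young mice.

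The metallothioneins stood the other way round in old vehicle-treated mice. Mt1 and Mt2, adjacent genes for zinc-binding proteins, were chosen after their values had been seen. Mt1 had 344 to 505 CPM in young kidneys and 33.9 to 161 in young livers, a log2 difference of 2.26 ± 0.26. In old vehicle-treated mice it had 340, 470 and 335 CPM in kidney and 542, 10052 and 3379 in liver, a difference of −3.61 (edgeR adjusted p = 0.00156). Mt2 differed by 3.91 ± 0.30 in young and −3.51 in old vehicle-treated mice (edgeR adjusted p = 0.00182). In ABT-737-treated mice the differences were −0.41 and −0.75, neither called. Adipoq and Cfd were called lower in kidney than in lung in ABT-737-treated mice, at −4.50 and −4.26, where the lung of replicate 4 had 354 and 1920 CPM and the other lungs 6.89 to 14.9 and 30.1 to 36.0.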

How the data were processed

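Tissue RNA was sequenced with a 3′ protocol derived from MARS-seq. The authors deposited raw counts per gene for kidney, liver and lung in 1 table with 1 RefSeq transcript per gene, and the submitters' processing notes name bcl2fastq, HISAT 0.1.5, HOMER and the build mm10. The use of strand and the collapsing of molecular identifiers are not given in the sources used here. A table of skin counts was not used here. Samples were grouped by their titles, and 2 old samples per tissue whose treatment label names another compound number than their title were kept as ABT-737. The replicates are described as biological, without naming the mice, and the p-values measure the spread between these samples.

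The 12 young libraries were fitted together, and the 9 old vehicle-treated and 9 old ABT-737-treated libraries each in a fit of their own, so their CPM are scaled separately. Genes passed edgeR's filterByExpr, were TMM-scaled and tested with edgeR's quasi-likelihood test (edgeR 4.0.16, limma 3.58.1, R 4.3.3), two-sided, with Benjamini-Hochberg adjustment over all tested genes and a threshold of 0.05 in each contrast. Every adjusted p in the report comes from edgeR, except those named as a DESeq2 adjusted p. The procedure was tested on simulated data. Fold bounds use a floor of 3 counts over the 4 libraries of a tissue, and intervals are exact at 95% and cover counting error only. Pairs of same-tissue young libraries differed by more than sampling noise, so each was kept as 1 sample.

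The members, gene lists and tests were chosen with earlier results of these data known. Named genes were, for each list, those called against both tissues in order of kidney level and then those called lower than either, the 12 kidney-high genes with the highest level and over 4-fold, the 8 kidney-low genes highest in both other tissues and over 2-fold, the 4 most variable kidney-high genes with at least 50 CPM and those at the threshold. Genes named in the report outside this rule, such as neighbouring and related genes, were chosen after their values were seen. Results for some genes are not reported here.

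The symbols of 11524 of 11867 tested genes matched RefSeq GRCm38.p6, and 11158 of the deposited transcripts (96.8%) lay inside the matched gene. As alternatives, the results were recomputed with DESeq2 1.42.0, its median-ratio factors within edgeR, unscaled totals, other filters, thinned counts, all 30 libraries in 1 fit, a test against a log2 fold change of 1, the replicate number as a block and leaving out each library.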

Additional observations from a re-analysis of the deposited data

Results flagged for a closer look

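In groups of 4 young libraries with at least 100 counts of a named gene, a library was picked out where its gap to the nearest other exceeded Dixon's 95% critical value as a share of the group's range. Of 209 groups, 15 (7.18%) did so, and chance alone picks about 1 in 20.

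Among kidney-high genes, Hbb-bs and Hbb-b1, which share reads, stood at 1632 and 1637 CPM in kidney replicate 1 against 320 to 408 and 321 to 411 in the other kidneys. Tmem27 stood at 242 CPM in kidney replicate 4 against 33.3 to 52.6. Slc22a12 had 1657 CPM in kidney replicate 3 against 1999 to 2034, Rhcg 102 in replicate 4 against 125 to 130, and Tfcp2l1 165 in replicate 4 against 173 to 174. Of genes not kidney-high, Aqp1 had 795 CPM in kidney replicate 1 against 726 to 730, and the kidney-low H2-D1 had 471 in kidney replicate 2 against 384 to 391.

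Outside kidney, H2-D1 and H2-K1 were lowest in liver replicate 1, at 987 against 1237 to 1286 and 1726 against 1889 to 1904 CPM. In lung, Apoa1 had 115 CPM in replicate 1 against 1.67 to 4.60 and Clic5 433 in replicate 1 against 575 to 598. Atp6v0d2 and Slc6a6 were highest in lung replicate 2, at 41.7 against 21.5 to 23.8 and 153 against 123 to 126 CPM, and Napsa in lung replicate 4, at 631 against 510 to 524.

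Mt1 and Mt2 were picked out because kidney stood above liver in young mice, by 2.26 and 3.91 (log2), and below it in old vehicle-treated mice, at −3.61 and −3.51. The difference between the ages was not tested.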

How the results depend on the processing

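The 6106 genes called against liver, 8866 against lung, 2038 kidney-high and 790 kidney-low stayed within 1.5 times under DESeq2, DESeq2's size factors, library totals, both other filters, all 30 libraries and the block. With counts thinned to the shallowest library, 5706 genes were called against lung and 1208 were kidney-high, 1200 of them also in the full data. Against a log2 fold change of 1, the 4 counts were 3097, 4952, 873 and 368. No gene went from kidney-high to kidney-low or back under any alternative. With library totals in place of TMM scaling, Hnf4a against liver turned to 0.11, and kidney-high and kidney-low genes numbered 3035 and 561. With DESeq2 they numbered 1658 and 1008.

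Leaving out each young library in turn gave 5605 to 6284, 8689 to 9152, 1790 to 2088 and 706 to 889. In old vehicle-treated mice, leaving out a library gave 716 to 955 kidney-high and 203 to 328 kidney-low genes called again, the lowest without kidney replicate 5 and 206 without kidney replicate 3, and in ABT-737-treated mice 823 to 1117 and 276 to 375. The cause was not tested. Of the values for single genes, 2362 kept direction and call, 94 lost the call, 23 gained one and 1 reversed.

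No correlation between young libraries of the same replicate number was over 0.1 (−0.0165 to 0.0589), but in 8 of 12 pairs a library correlated best with its own number, a hint from the data and not from the design. With the replicate block, the counts were 6085, 8869, 2041 and 793 in young mice, 861 and 299 in old vehicle-treated mice and 956 and 351 in old ABT-737-treated mice. Low liver depth limits what can be seen there below 1.76 CPM.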
